A study of Mus musculus with 6 samples.

Results

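The nuclear receptor superfamily was followed in heart ventricles of mouse embryos, as a list of 46 genes drawn up from the known members of the superfamily. The list was not picked by measured values, but earlier results of these data were known when it was chosen. Of the 46 genes, 44 had a transcript row in the expression table, and Nr1i3 and Nr0b1 had none. The 44 took 94 of the 30031 rows and 44 of the 19245 gene symbols of that table. Reads were summed over the rows of each symbol, and the 3 estrogen-related receptors were also followed row by row.

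Nuclear receptors are transcription factors that bind DNA through a zinc finger domain, and many are switched by small lipophilic ligands such as thyroid hormone, retinoic acid, steroids, fatty acids or bile acids. Several of them, among them the retinoic acid, thyroid hormone and peroxisome proliferator-activated receptors, bind DNA as partners of a retinoid X receptor. The estrogen-related receptors are orphan receptors without an established natural ligand that act with the coactivators of the PGC-1 family on genes of mitochondrial energy metabolism, and in the heart they are known for their part in the switch to oxidative metabolism around birth.

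The study compared 2 groups of C57BL/6 embryos at embryonic day 17.5, each with 3 libraries of ribosome-depleted total RNA from both ventricles and each library pooling 2 hearts. The libraries labelled knockout came from embryos that carried floxed alleles of Esrra and Esrrg together with Cre recombinase under the Nkx2-5 promoter, which is active in cardiac progenitors. Deletion was thus aimed at cells of that lineage, and other cells of the ventricles keep their alleles. The controls, which carry the genotype label wild type, were embryos with floxed alleles and without Cre. Cre was thus present in the labelled knockouts alone, and its effects and those of the deletions cannot be told apart. Nothing in the labels ties a knockout pool to a control pool, and p-values measure the spread between these pools.

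Libraries held 38210445 to 85647132 mapped reads, with 12807221 to 32663838 estimated counts summed over the genes of the table. Exons took 37.6% to 40.6% of the reads in the labelled knockouts and 35.5% to 37.1% in the controls. The deposited RPKM (reads per kilobase of transcript, scaled to the reads of the library) stands 0.15 higher on the log2 scale in the labelled knockouts, for every gene alike, than a level scaled by the TMM factors of edgeR. Levels between genes are therefore given in deposited RPKM, and differences between groups in TMM-scaled CPM, the counts of a gene scaled to library size. Markers of cardiomyocytes were high, at a summed level of 83220 to 92911 CPM in the labelled knockouts and 103820 to 106385 CPM in the controls, and lung markers were at or near 0. Of the other marker lists, 4 of 5 atrial markers were higher in the labelled knockouts, with summed levels of 2734 to 3310 CPM against 966 to 1056 CPM in the controls. All 5 fibroblast markers were higher as well. Their summed levels were 1373 to 1777 CPM in the labelled knockouts against 960 to 1095 CPM in the controls. Of the cardiomyocyte markers 5 of 6 were lower, and of 6 endothelial markers 4 were lower and 1 was higher. Among all genes tested, 22.4% were higher and 22% lower. None of these marker genes was at 0 in all 6 libraries, and their part in the results below was not tested. In such bulk tissue, fewer cells of a type and less RNA per cell cannot be told apart. The pools also differed in sex-linked transcripts. Labelled knockout replicate 1 held 0.949 CPM of Xist, against 1170 to 2372 CPM in the other 5 libraries, and control replicates 1 and 3 held 0.0567 and 0.167 CPM of 4 Y-linked genes, against 112.2 to 323.9 CPM in the other 4. Each test on gene counts was therefore also run with a covariate for the level of the Y-linked genes. A further fit left out those 3 libraries. Both are together called the settings for sex-linked genes. Neither is given for transcript rows or for summed levels and shares. With the covariate, 4 of 6 cardiomyocyte and 2 of 6 endothelial markers were lower. In that fit 3 of 5 atrial, all 5 fibroblast and 1 of 6 endothelial markers were higher.

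The nuclear receptor genes differed widely in level in fetal ventricle. By the mean over all 6 libraries, 22 of the 44 genes with a row stood at 1 RPKM or more, 15 further genes were lower but passed the filter on low counts, and 7 did not pass it. Thra, the thyroid hormone receptor alpha gene, stood first in both groups, at 20.1 ± 1.73 RPKM in the labelled knockouts and 22.2 ± 0.587 RPKM in the controls (SD, n = 3 each). The order behind it differed between the groups. In the labelled knockouts it ran on with the glucocorticoid receptor gene Nr3c1 (9.23 RPKM), Esrrg (8.66 RPKM), the retinoid X receptor gene Rxra (7.88 RPKM), Esrra (7.61 RPKM) and the testicular receptor gene Nr2c2 (6.99 RPKM). In the controls it ran on with Esrra (12.1 RPKM), Nr3c1 (7.79 RPKM), Nr2c2 (6.42 RPKM), Rxra (6.10 RPKM) and Esrrg (5.50 RPKM). Among the labelled knockouts, Rxra (7.44 to 8.27 RPKM), Esrra (7.49 to 7.70 RPKM) and Nr2c2 (6.71 to 7.497 RPKM) overlapped between libraries and so have no set order there. Nr2c2 (6.12 to 6.71 RPKM) and Rxra (5.78 to 6.28 RPKM) likewise overlapped in the controls. Esrrg (5.36 to 5.71 RPKM) overlapped there with Nr1h2 (5.32 to 5.61 RPKM), Rara (4.82 to 5.68 RPKM) and Nr2f6 (5.14 to 5.43 RPKM).

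**Figure D1:**
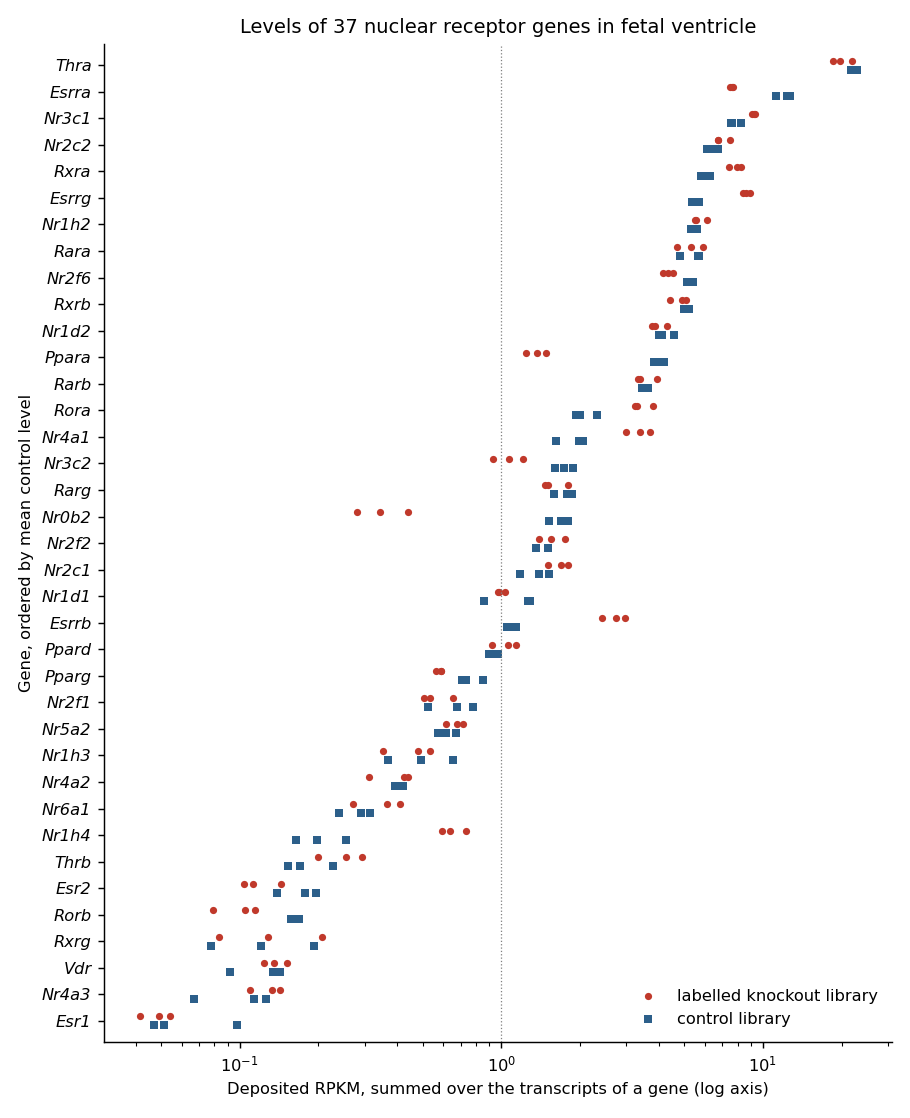
Deposited RPKM by library, on a log axis, of the 37 nuclear receptor genes that passed the filter on low counts, with the labelled knockouts (circles) above the controls (squares) for each gene, the genes ordered by mean control level and a dotted line at 1 RPKM. By group means Thra leads in both groups, and Ppara stands at rank 19 in the labelled knockouts against rank 12 in the controls.

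By family, the thyroid hormone receptors and the estrogen-related receptors made up the greatest shares of the summed RPKM of the superfamily. The thyroid hormone receptors took 18.1% ± 0.732 in the labelled knockouts and 19.8% ± 0.0829 in the controls, and the estrogen-related receptors 16.95% ± 0.513 in the labelled knockouts and 16.6% ± 0.446 in the controls (SD, n = 3 each). Retinoid X receptors followed at 11.4% ± 0.225 in the labelled knockouts and 10.1% ± 0.256 in the controls. The share of the peroxisome proliferator-activated receptors was 2.67% ± 0.182 in the labelled knockouts against 5.08% ± 0.155 in the controls. These shares are descriptions, and no test was run on them.

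Of the 37 genes tested, 6 were higher in the labelled knockouts at an adjusted p under 0.05, where 22.4% of all 14290 genes tested were higher. Another 13 were lower, where 22% of all genes were lower. Together 19 of 37 were called, where 44.4% of all genes were called in either direction. The median log2 fold change was -0.17 over the 37 genes and 0.01 over all genes tested. Past 1.5-fold, 11 of the 37 were called, where 13.8% of all genes were. Tests were run with edgeR (quasi-likelihood, adjusted over all genes by Benjamini-Hochberg), as are the adjusted p-values of single genes below. In each of the 19 called genes the CPM values of the 3 labelled knockouts lay wholly on one side of those of the 3 controls, and the same held for Nr1h2 and Esr1, which were not called. Of all genes tested, 53.7% had groups that stood apart in this way.

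**Figure D2:**
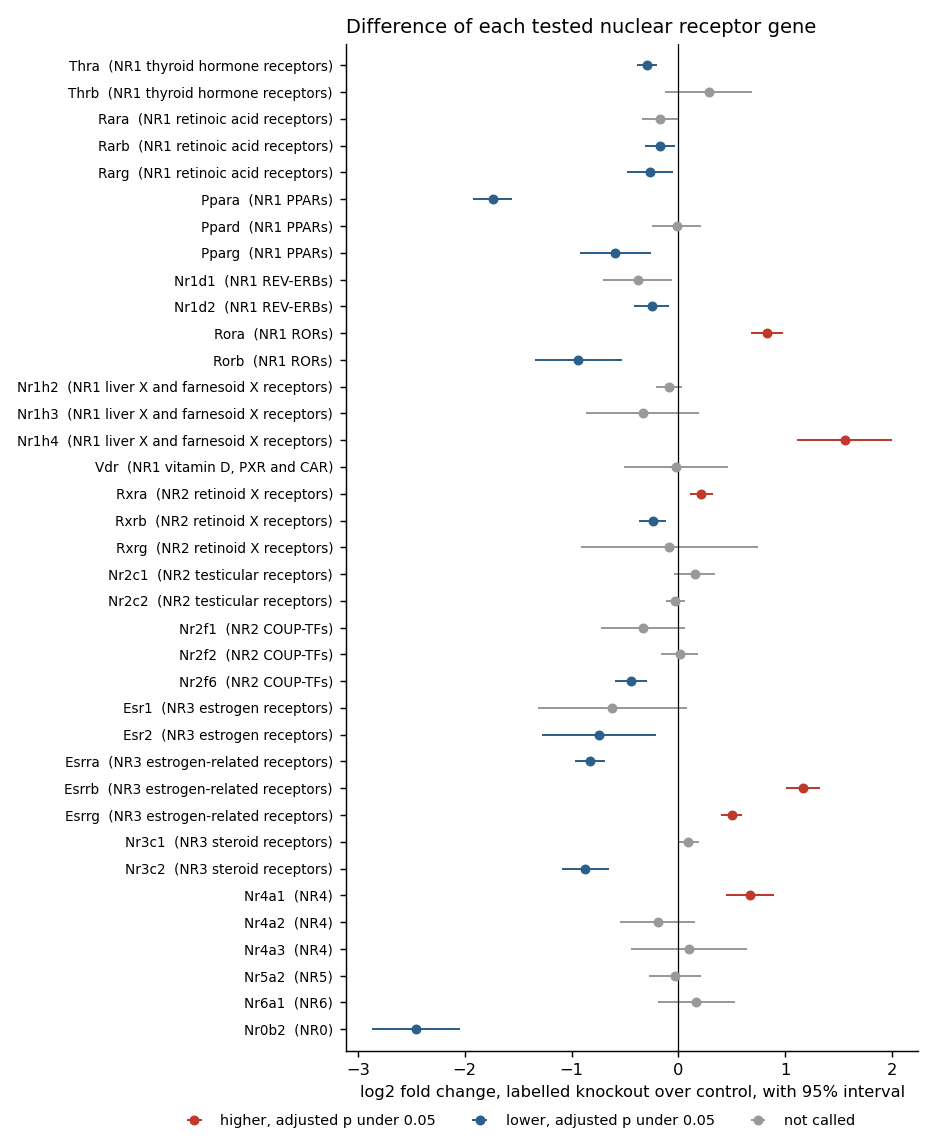
Log2 fold change, labelled knockout over control, of the 37 tested nuclear receptor genes with its 95% interval, coloured by call. The greatest differences among the called genes are those of Nr0b2 (-2.46) and Ppara (-1.74) on the lower side and of Nr1h4 (1.56) and Esrrb (1.17) on the higher side.

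The 3 estrogen-related receptors went different ways. Esrra, one of the floxed genes, was lower, whereas Esrrg, the other floxed gene, and Esrrb, which was not targeted, were higher. Esrra (mm10 chromosome 19, 6910977 to 6921808, minus strand) had 41.0, 44.0 and 43.7 CPM in the labelled knockouts and 82.0, 68.9 and 76.4 CPM in the controls. The groups stood well apart, and the fold of labelled knockout over control was 0.563 (95% interval 0.512 to 0.620, log2 fold change -0.83, SE 0.0638, adjusted p 3.67e-07). Esrrg (chromosome 1, 187609006 to 188214884, plus strand) had 109.8, 116.7 and 120.2 CPM in the labelled knockouts and 81.9, 79.5 and 83.7 CPM in the controls. Every labelled knockout was thus above every control, at a fold of 1.41 (1.32 to 1.51, log2 fold change 0.50, SE 0.0465, adjusted p 2.22e-06). Esrrg shares 2415 bases with 9330162B11Rik on the opposite strand, and whether counting used strand is not given in the sources used here. Esrra overlaps Mir6990 by 91 bases on the same strand and Trmt112 by 50 bases on the opposite strand. Overlaps given here and below are of whole spans from start to end, introns included, so they need not lie in counted sequence. Because Esrrg goes against its label, every direction given here is that of the libraries labelled knockout. Counts are given per whole transcript and the labels do not say which exons are floxed, so that these levels check neither the deletion nor the protein.

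Esrrb, the gene of the estrogen-related receptor beta, known from mouse stem cells and placenta, lies on chromosome 12 at 86361117 to 86521628. It had 30.4, 27.2 and 29.8 CPM in the labelled knockouts and 13.2, 12.4 and 13.4 CPM in the controls. The least labelled knockout was more than 2-fold above the highest control, and the fold was 2.25 (2.01 to 2.505, log2 fold change 1.17, SE 0.0726, adjusted p 4.62e-08). In length-scaled terms Esrrb stood at 2.71 ± 0.272 RPKM in the labelled knockouts and 1.09 ± 0.0416 RPKM in the controls (SD, n = 3 each).

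**Figure D3:**
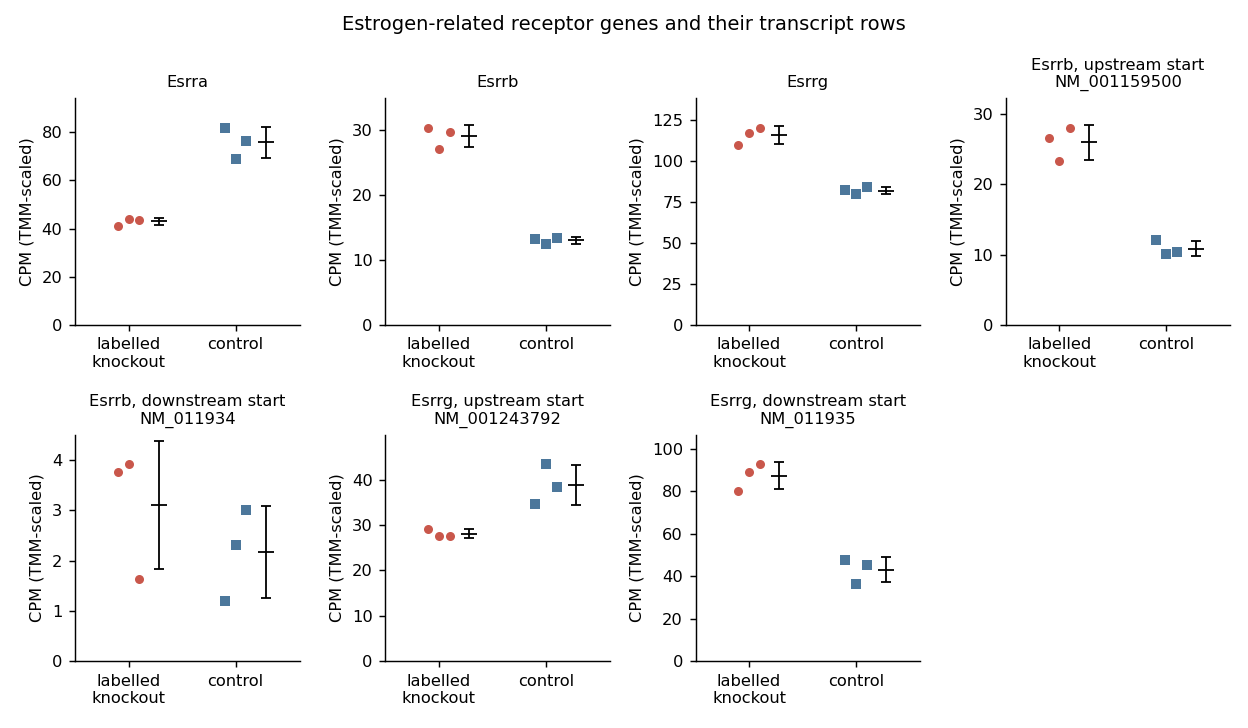
TMM-scaled CPM by library of the 3 estrogen-related receptor genes and of the 2 transcript rows each of Esrrb and Esrrg, with the labelled knockouts left of the controls, bars at the mean and whiskers of 1 SD (n = 3). Esrra and the upstream row of Esrrg are lower in the labelled knockouts, and Esrrb, Esrrg, the upstream row of Esrrb and the downstream row of Esrrg are higher, while the groups overlap in the downstream row of Esrrb, NM_011934.

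The summed RPKM of the 3 receptors was 19.2, 18.3 and 19.4 in the labelled knockouts and 19.1, 17.7 and 19.2 in the controls. The means, 19.0 ± 0.582 in the labelled knockouts and 18.7 ± 0.870 in the controls (SD, n = 3 each), lay closer together than the spread within a group, with a log2 ratio of 0.02 on the deposited scale. On TMM-scaled levels the sums were 47.7 ± 1.51 in the labelled knockouts and 52.2 ± 3.30 in the controls (SD, n = 3 each), a gap wider than either SD, with a log2 ratio of -0.13. The log2 ratio was -0.02 on the deposited scale without control replicate 2, so its sign depends on the scale and on that library. The share of each gene in the sum is the same on both scales. Esrra supplied 40.1% ± 0.689 of it in the labelled knockouts and 64.7% ± 1.599 in the controls. Esrrg supplied 45.6% ± 0.665 in the labelled knockouts and 29.5% ± 1.40 in the controls, and Esrrb 14.3% ± 1.09 in the labelled knockouts and 5.82% ± 0.201 in the controls. No test was run on these sums and shares.

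Esrrg and Esrrb each had 2 transcript rows that begin at different sites, and the rows of a gene did not move alike. The windows around these 4 start sites, 250 bases before and 50 after, are shown because the rows they belong to differ in how they moved. They are RefSeq sequences of GRCm38.p6, read 5′ to 3′, with capitals from the start site on. The Esrrg windows are chr1:187608756-187609055 and chr1:187997577-187997876, and the Esrrb windows are chr12:86360867-86361166 and chr12:86421394-86421693, all on the plus strand.
Esrrg upstream start: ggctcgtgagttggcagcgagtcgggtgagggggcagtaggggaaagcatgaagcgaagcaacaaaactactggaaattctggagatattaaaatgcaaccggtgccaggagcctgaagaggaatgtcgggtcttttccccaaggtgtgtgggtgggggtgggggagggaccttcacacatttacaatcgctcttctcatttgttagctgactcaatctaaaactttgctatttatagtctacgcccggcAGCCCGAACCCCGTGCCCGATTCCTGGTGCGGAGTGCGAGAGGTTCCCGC
Esrrg downstream start: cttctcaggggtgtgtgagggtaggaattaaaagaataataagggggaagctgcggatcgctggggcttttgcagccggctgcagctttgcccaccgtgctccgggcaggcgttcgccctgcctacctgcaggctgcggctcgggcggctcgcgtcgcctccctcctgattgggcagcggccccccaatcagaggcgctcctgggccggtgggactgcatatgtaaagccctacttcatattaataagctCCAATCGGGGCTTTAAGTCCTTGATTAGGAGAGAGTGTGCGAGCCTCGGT
Esrrb upstream start: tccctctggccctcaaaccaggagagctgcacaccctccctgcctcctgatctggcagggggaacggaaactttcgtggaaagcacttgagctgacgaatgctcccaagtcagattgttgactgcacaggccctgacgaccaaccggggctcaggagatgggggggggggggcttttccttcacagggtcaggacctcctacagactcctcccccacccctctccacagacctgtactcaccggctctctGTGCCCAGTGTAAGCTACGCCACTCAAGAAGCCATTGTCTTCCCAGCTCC
Esrrb downstream start: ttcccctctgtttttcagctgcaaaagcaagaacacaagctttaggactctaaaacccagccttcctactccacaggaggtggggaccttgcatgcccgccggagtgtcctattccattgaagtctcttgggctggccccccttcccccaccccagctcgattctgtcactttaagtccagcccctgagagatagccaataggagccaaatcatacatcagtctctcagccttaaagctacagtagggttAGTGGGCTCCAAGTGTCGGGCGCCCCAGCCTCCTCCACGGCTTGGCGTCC

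The starts lie 388821 bases apart in Esrrg and 60527 bases apart in Esrrb. Further Esrrg starts in RefSeq, at 187651758 and 187652241, lie between those of its rows and match no transcript row. How reads of transcripts from those starts were counted is not given in the sources used here. The G and C content was 54.0% in the upstream and 60% in the downstream window of Esrrg, with 15 and 19 CpG dinucleotides in that order. In Esrrb it was 60% in the upstream and 55.3% in the downstream window, with 7 CpG dinucleotides in each. In all, 3 motifs were searched on both strands: AGGTCA, the hexamer that many nuclear receptors recognise; TCAAGGTCA, the extended element of the estrogen-related receptors, which contains that hexamer; and TGACGTCA, the cyclic AMP response element. Over 63 windows of 42 members in the RefSeq table, AGGTCA stood in 19.0%, where 16.3% of 32851 windows of all genes held it. TCAAGGTCA stood in 0 of the 63 member windows, where 0.423% of all windows held it, and TGACGTCA in 2 of them, where 1.79% of all did. None of the 4 windows printed above held any of these letters, which says nothing about sites elsewhere.

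The estimated counts of the Esrrg row with the downstream start, NM_011935, were higher in the labelled knockouts. It stood at 6.35, 6.42 and 6.91 RPKM there and at 3.11, 2.496 and 3.11 RPKM in the controls (log2 fold change 1.01, SE 0.103, adjusted p 0.000568) by edgeR over all 21591 transcripts tested. The row with the upstream start, NM_001243792, stood at 2.28, 1.97 and 2.03 RPKM in the labelled knockouts and at 2.24, 2.94 and 2.59 RPKM in the controls. Those ranges overlap in RPKM. On counts this row was lower in the labelled knockouts (log2 fold change -0.46, SE 0.0892, adjusted p 0.0102) by edgeR. The call was lost with limma on log2(RPKM + 1), at -0.21 and an adjusted p of 0.126. That difference has 1 added before the log. It is also on deposited RPKM, which stands 0.15 higher in the labelled knockouts, so its size does not compare directly with -0.46. NM_011935 made up 73.6% to 77.3% of the RPKM of the gene in the labelled knockouts and 45.9% to 58.1% in the controls.

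In Esrrb the upstream row carried the difference that passed the test. NM_001159500 had 2.59, 2.07 and 2.58 RPKM in the labelled knockouts and 0.972, 0.856 and 0.874 RPKM in the controls (log2 fold change 1.26, SE 0.109, adjusted p 0.000264) by edgeR. The downstream row, NM_011934, had 0.375, 0.356 and 0.155 RPKM in the labelled knockouts and 0.0988, 0.199 and 0.259 RPKM in the controls, with overlapping groups. Its log2 fold change of 0.51 had a 95% interval of -0.55 to 1.56 and an adjusted p of 0.484 by edgeR. Esrra had a single row, NM_007953 (log2 fold change -0.83, SE 0.0719, adjusted p 0.000268) by edgeR. Reads that match both rows of a gene were shared out by estimation, and no test used here takes account of that. Of the 61 member transcripts tested, 6 were higher and 11 lower, where 22.7% of all transcripts tested were called in either direction.

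The peroxisome proliferator-activated receptors sense fatty acids, and in the heart Ppara drives genes of fatty acid uptake and oxidation. Ppara (chromosome 15, 85735564 to 85806851, plus strand) had 21.6, 28.2 and 25.4 CPM in the labelled knockouts and 88.3, 77.1 and 80.9 CPM in the controls. The highest labelled knockout was far below the lowest control, and the fold was 0.300 (95% interval 0.264 to 0.341, log2 fold change -1.74, SE 0.0848, adjusted p 4.86e-09). Per length this was 1.36 ± 0.119 RPKM in the labelled knockouts and 4.01 ± 0.182 RPKM in the controls (SD, n = 3 each). Both of its transcript rows were lower: NM_011144 had a log2 fold change of -2.29 and NM_001113418 one of -1.36, with adjusted p of 0.000160 and 0.000114 by edgeR.
Pparg, the adipocyte regulator, was lower too, at a low level of 2.63 ± 0.0999 CPM in the labelled knockouts and 3.91 ± 0.394 CPM in the controls (SD, n = 3 each), with a log2 fold change of -0.59 and an adjusted p of 0.00698. That call did not hold with the Y-linked covariate, at an adjusted p of 0.314, and without the 3 libraries near 0 of Y-linked genes or Xist, at 0.328. The widely expressed Ppard was not called, at 8.40 ± 0.778 CPM in the labelled knockouts and 8.47 ± 0.523 CPM in the controls, with an adjusted p of 0.927.

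Nr0b2 encodes SHP, a receptor without a DNA-binding domain that represses other nuclear receptors and is best known from bile acid control in the liver. It (chromosome 4, 133553376 to 133556686, plus strand) had 29, 22 and 22 counts in the labelled knockouts and 97, 76 and 112 counts in the controls. Scaled, these were 0.865, 1.47 and 1.11 CPM in the labelled knockouts and 5.62, 5.97 and 6.37 CPM in the controls, the deepest fall among the tested members. Its fold was 0.182 (95% interval 0.137 to 0.242, log2 fold change -2.46, SE 0.190, adjusted p 3.68e-07). Nr1h4, the gene of the bile acid receptor FXR, which is known to induce Nr0b2 in the liver, went the other way. It had 3.85, 3.42 and 3.45 CPM in the labelled knockouts and 0.927, 1.18 and 1.54 CPM in the controls (log2 fold change 1.56, SE 0.205, adjusted p 4.61e-05). Its level was low in both groups, at 0.655 ± 0.0715 RPKM in the labelled knockouts and 0.205 ± 0.0461 RPKM in the controls (SD, n = 3 each). Liver RNA was seen in 1 library: albumin (Alb) stood at 54.8 CPM in control replicate 3, and at 0.0507 to 1.74 CPM in the other 5 libraries. Without that library the log2 fold change was -2.40 for Nr0b2 (adjusted p 6.74e-06) and 1.79 for Nr1h4 (0.000105).

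Among the steroid receptors, the mineralocorticoid receptor gene Nr3c2 was lower while the glucocorticoid receptor gene Nr3c1 was not called. Nr3c2 (chromosome 8, 76902508 to 77243639, plus strand) had 10.5, 12.9 and 9.63 CPM in the labelled knockouts and 18.8, 19.6 and 21.2 CPM in the controls. The groups did not overlap, and the fold was 0.547 (95% interval 0.470 to 0.638, log2 fold change -0.87, SE 0.102, adjusted p 1.68e-05). Nr3c1, much the more abundant, had 147.0 ± 5.45 CPM in the labelled knockouts and 137.7 ± 6.31 CPM in the controls, with a log2 fold change of 0.09 and an adjusted p of 0.124. It passed the threshold as higher with raw library totals (adjusted p 0.0170), without labelled knockout replicate 1 (0.0492) and without the 3 libraries near 0 of Y-linked genes or Xist (0.0455). The estrogen receptor genes were near the limit of detection. Esr2 was lower, at 0.120 ± 0.0210 RPKM in the labelled knockouts and 0.171 ± 0.0291 RPKM in the controls (adjusted p 0.0262), and Esr1 was not called (log2 fold change -0.62, adjusted p 0.139), but passed as lower with the Y-linked covariate (-1.33, 0.0402). The call of Esr2 was lost without labelled knockout replicate 1 (0.108) or 3 (0.0578), without control replicate 1 (0.0890) or 3 (0.103), with DESeq2 (0.139) and in both settings for sex-linked genes (0.679 and 0.726). Pgr, the progesterone receptor gene, had 1 to 11 counts a library and was not tested.

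**Figure D4:**
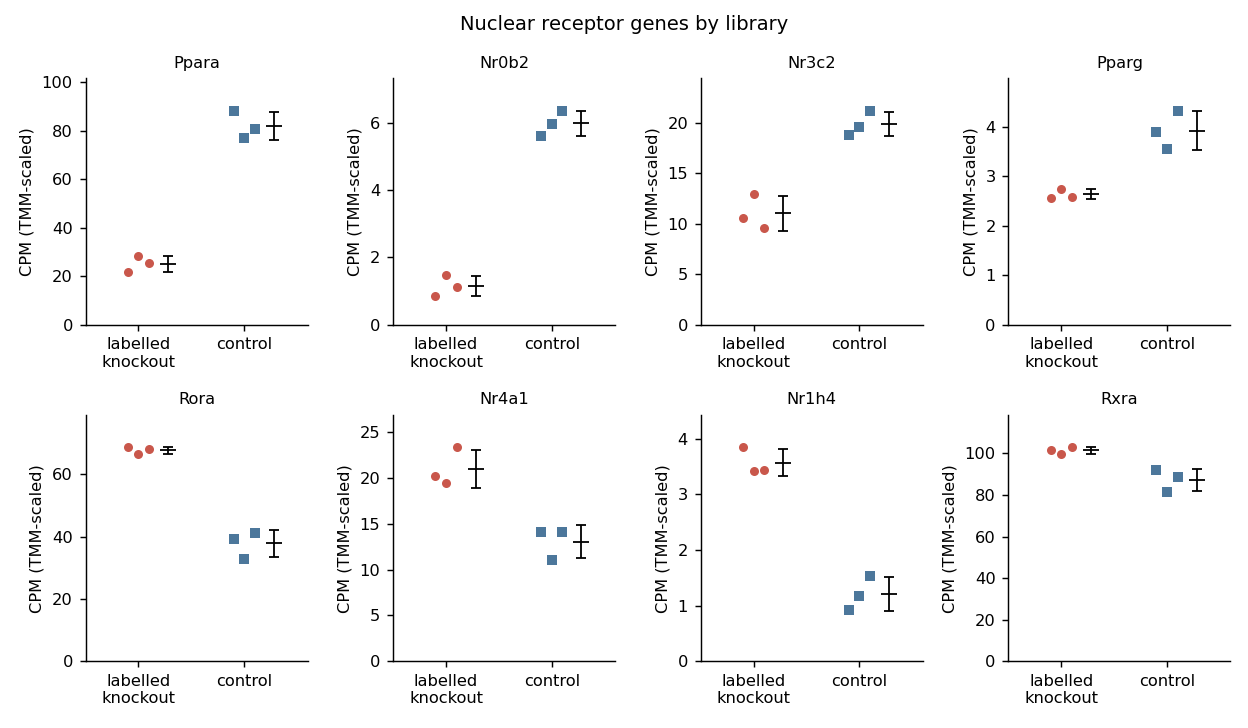
TMM-scaled CPM by library of 8 nuclear receptor genes, with the labelled knockouts left of the controls, bars at the mean and whiskers of 1 SD (n = 3). The upper panels (Ppara, Nr0b2, Nr3c2, Pparg) are lower in the labelled knockouts, the lower panels (Rora, Nr4a1, Nr1h4, Rxra) higher, and the groups do not overlap in any of them.

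The ROR and REV-ERB receptors act on the same DNA element with opposite effect and link the circadian clock to metabolism. Rora (chromosome 9, 68653786 to 69388246, plus strand) had 68.7, 66.4 and 68.1 CPM in the labelled knockouts and 39.4, 33.0 and 41.2 CPM in the controls. Every labelled knockout was above every control, at a fold of 1.78 (95% interval 1.61 to 1.98, log2 fold change 0.83, SE 0.0689, adjusted p 7.10e-07). Both long rows of Rora were higher, with log2 fold changes of 0.93 and 0.86 and adjusted p of 0.00107 and 0.000504 by edgeR, and the short row NM_001289917 was not called (0.870). Rora overlaps the annotated genes Gm15511, by 15359 bases on the opposite strand, and 9530091C08Rik, by 7977 bases on the same strand. Rorb, at 0.0993 ± 0.0185 RPKM in the labelled knockouts and 0.161 ± 0.00623 RPKM in the controls, was lower (log2 fold change -0.94, adjusted p 0.00126). Its call was lost in both settings for sex-linked genes, at adjusted p of 0.0860 and 0.107.
The REV-ERB gene Nr1d2 was lower, at 46.5 ± 5.24 CPM in the labelled knockouts and 54.8 ± 3.22 CPM in the controls, with a log2 fold change of -0.25 and an adjusted p of 0.0172. That call was lost without labelled knockout replicate 1 (0.0696), without control replicate 3 (0.0875) and in both settings for sex-linked genes (0.425 and 0.444). Its paralog Nr1d1 had 6.93 ± 0.547 CPM in the labelled knockouts and 8.798 ± 1.996 CPM in the controls and was not called (adjusted p 0.0532). It passed as lower without control replicate 2 (0.00436), without labelled knockout replicate 2 (0.0446), with no filter (0.0347) and with robust dispersion (0.0431). Its log2 fold change took the other sign, 0.17, with the Y-linked covariate.

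The NR4A receptors are immediate early genes, induced within minutes by many stimuli and without a known need for a ligand. Nr4a1 (chromosome 15, 101266846 to 101274794, plus strand) had 20.2, 19.4 and 23.3 CPM in the labelled knockouts and 14.1, 11.0 and 14.1 CPM in the controls. The groups did not overlap, and the fold was 1.59 (95% interval 1.37 to 1.86, log2 fold change 0.67, SE 0.102, adjusted p 0.000151). Nr4a2 and Nr4a3 were low and not called, at 2.99 ± 0.468 and 1.80 ± 0.314 CPM in the labelled knockouts and 3.46 ± 0.179 and 1.58 ± 0.492 CPM in the controls (adjusted p 0.365 and 0.778).

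Of the 8 thyroid hormone, retinoic acid and retinoid X receptor genes tested, 1 was higher and 4 were lower. The shares of all genes tested were 22.4% higher and 22% lower. Thra was lower, at 122.4 ± 4.84 CPM in the labelled knockouts and 150.2 ± 4.905 CPM in the controls (SD, n = 3 each, log2 fold change -0.29, SE 0.0432, adjusted p 0.000118). Both of its rows were lower, by 0.22 and 0.46 on the log2 scale with adjusted p of 0.00670 and 0.00966 by edgeR. Thra shares 1075 bases with Nr1d1 on the opposite strand, and whether counting used strand is not given in the sources used here. Thrb was low and not called, at 0.250 ± 0.0475 RPKM in the labelled knockouts and 0.184 ± 0.0389 RPKM in the controls (adjusted p 0.242). Of the retinoid X receptors, the shared partners, Rxra was higher at 101.4 ± 1.55 CPM in the labelled knockouts and 87.3 ± 5.35 CPM in the controls (log2 fold change 0.21, adjusted p 0.00310). Rxrb was lower at 28.8 ± 0.645 CPM in the labelled knockouts and 34.0 ± 1.504 CPM in the controls (log2 fold change -0.24, adjusted p 0.00447), a call lost in both settings for sex-linked genes (0.197 and 0.170). Rxrg was at 0.139 ± 0.0622 RPKM in the labelled knockouts and 0.130 ± 0.0581 RPKM in the controls and was not called (0.880).
The retinoic acid receptors sat at the threshold. Rarb had 26.6 ± 1.55 CPM in the labelled knockouts and 30.1 ± 1.32 CPM in the controls (log2 fold change -0.17, adjusted p 0.0495), and Rarg 11.1 ± 0.856 CPM in the labelled knockouts and 13.5 ± 1.36 CPM in the controls (-0.27, 0.0449). Rarb kept its call in 6 and Rarg in 7 of 16 alternatives. Leaving out labelled knockout replicate 2 or 3 or control replicate 1 or 2 gave adjusted p of 0.0842, 0.151, 0.169 and 0.0931 for Rarb and 0.0817, 0.129, 0.211 and 0.0891 for Rarg. The estimated counts of the Rarb rows went apart, with NM_001289762 higher (log2 fold change 1.77, adjusted p 0.00415 by edgeR) and NM_011243 lower (-0.36, 0.0170). Rara had 42.3 ± 3.05 CPM in the labelled knockouts and 47.9 ± 5.13 CPM in the controls and was not called (0.0834). It passed as lower without labelled knockout replicate 1 (0.0421) and without control replicate 2 (0.0112).

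Of the COUP-TF family, orphan receptors known from heart and vessel development, Nr2f6 was lower. It had 24.3 ± 1.85 CPM in the labelled knockouts and 32.68 ± 1.14 CPM in the controls (SD, n = 3 each, log2 fold change -0.44, SE 0.0693, adjusted p 0.000206). Nr2f2, which marks atrial and venous cells, was not called at 16.5 ± 1.14 CPM in the labelled knockouts and 16.4 ± 0.895 CPM in the controls (0.917), nor was Nr2f1 (0.163). Nr2c2 and Nr2c1, the testicular orphan receptors, had adjusted p of 0.608 and 0.180. Nr2c2 stood at 134.8 ± 3.81 CPM in the labelled knockouts and 137.6 ± 3.54 CPM in the controls, with a 95% interval of its fold of 0.923 to 1.04, and it shares 3536 bases with Mrps25 on the opposite strand. The liver X receptor Nr1h2, a sensor of oxidised cholesterol, had 29.0 ± 0.745 CPM in the labelled knockouts and 30.8 ± 0.490 CPM in the controls (0.227). Its scarce paralog Nr1h3 was at 0.456 ± 0.0920 RPKM in the labelled knockouts and 0.504 ± 0.142 RPKM in the controls (0.291). Nr5a2, Nr6a1 and the vitamin D receptor gene Vdr were not called, at means of 0.668, 0.348 and 0.137 RPKM in the labelled knockouts and 0.6205, 0.282 and 0.123 RPKM in the controls (0.865, 0.450 and 0.951). Nr2e1, Nr2e3, Hnf4g, Hnf4a, Nr1i2 and Nr5a1 were below the filter in both groups, with at most 18 counts in any library. Among them Hnf4a, a gene that defines hepatocytes, had 0 counts in 5 libraries and 4 counts in control replicate 3, the library with albumin RNA.

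Partners and targets of the receptors were followed in 10 lists, some of which share genes. Over all genes tested, 22.4% were higher and 22% lower, and the counts of the lists stand beside these shares. The members named, up to 2 in each direction, are those with the smallest adjusted p among the genes reported here. All 17 genes listed as targets of the estrogen-related receptors were lower by edgeR, at a median of -1.32 on the log2 scale. Only 16 were lower with DESeq2, robust dispersion or the Y-linked covariate, and without labelled knockout replicate 1 or 2 or control replicate 3. Leaving out the 3 libraries near 0 of Y-linked genes or Xist gave a median of -1.21. Cpt1b, the mitochondrial gate of long-chain fatty acids, had 153.9 ± 4.66 CPM in the labelled knockouts and 469.2 ± 30.4 CPM in the controls. Sdhb of respiratory complex II had 109.3 ± 9.15 CPM in the labelled knockouts and 344.4 ± 6.86 CPM in the controls (adjusted p 1.20e-10 and 1.55e-10). Of 19 tested targets of the peroxisome proliferator-activated receptors, 12 were lower and 2 higher, with a median of -0.87. Acsl1, which activates fatty acids, fell by 2.26 and Cpt1b by 1.61 on the log2 scale, while Ucp2 was 0.76 and the lipid droplet protein gene Plin2 0.15 higher (adjusted p 2.23e-05 and 0.0478). The call of Plin2 was lost in 9 of 16 alternatives, among them DESeq2 (0.114) and both settings for sex-linked genes (0.243 and 0.133), and without labelled knockout replicate 2 (0.0849) or 3 (0.153) or control replicate 1 (0.206) or 2 (0.103). These 2 lists share genes, and both were drawn up with the fall of oxidative genes in these libraries already known.

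**Figure D5:**
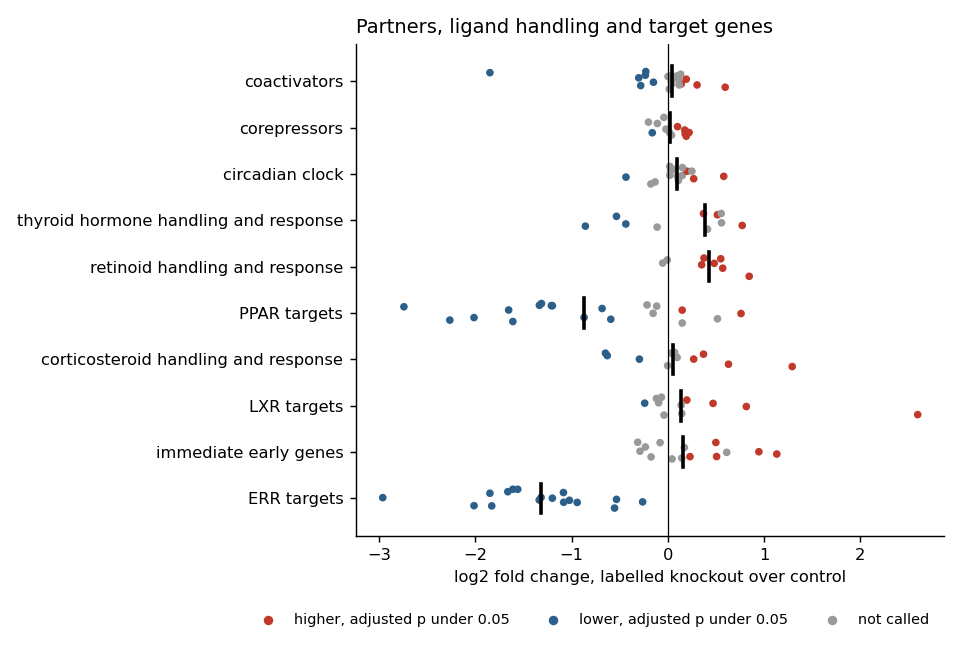
Log2 fold change, labelled knockout over control, of each tested gene (points, coloured by call) in the 10 lists of receptor partners, ligand handling genes and target genes, with a black bar at the median of each list. In the test shown, all 17 listed targets of the estrogen-related receptors and 12 of 19 of the peroxisome proliferator-activated receptors are lower, and 6 of 8 retinoid genes are higher. Settings in which fewer of these genes were called are given in the text.

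Among 20 coactivators 4 were higher and 6 lower, with a median log2 fold change of 0.04. With 10 of 20 called, where 44.4% of all genes were, the list lay near the share of all genes, as did the corepressors with 6 of 12. Ppargc1a, the PGC-1 alpha gene, was higher at 433.6 ± 27.7 CPM in the labelled knockouts and 286.3 ± 27.0 CPM in the controls (log2 fold change 0.60, adjusted p 1.02e-05), as was Pprc1 of the same family (0.30, 0.00602). Perm1, a muscle gene induced by PGC-1 and the estrogen-related receptors, was lower at 19.1 ± 1.20 CPM in the labelled knockouts and 68.3 ± 6.07 CPM in the controls (-1.85, 7.47e-10), as was Ncoa1 (-0.30, 0.000129). Of 12 corepressors 5 were higher and 1 lower, among them Tbl1x and Tbl1xr1, subunits of the NCoR complex, higher by 0.19 and 0.22, and Lcor lower by 0.16, on the log2 scale. In both settings for sex-linked genes 1 coactivator was higher and 3 were lower, and every corepressor call was lost. The call of Lcor was also lost with raw library totals (0.163), no filter (0.0566), DESeq2 (0.129) and the replicate block (0.0510), and without any 1 library other than labelled knockout replicate 1 (0.0602 to 0.109). With raw library totals 7 coactivators were higher. Without control replicate 1, 2 coactivators were higher, and without labelled knockout replicate 3 or control replicate 3, 2 corepressors were, as with DESeq2.

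Of 15 other clock genes, 3 were higher and 1 lower, with a median of 0.10, so that 4 of 15 were called where 44.4% of all genes were. The repressor Cry2 was 0.58 and Per1 0.27 higher, and Bhlhe41 fell by 0.43, on the log2 scale (adjusted p 3.10e-05, 0.00945 and 0.000529). The call of Bhlhe41 was lost with the Y-linked covariate (0.0590). Of 10 tested genes of thyroid hormone handling and response, 3 were higher and 3 lower. Dio2, which makes active hormone, was higher, at 29.3 ± 4.77 CPM in the labelled knockouts and 16.8 ± 2.02 CPM in the controls. The transporter Slc16a10 and the calcium pump gene Atp2a2 were lower, by 0.86 and 0.53 on the log2 scale. Adjusted p of Dio2, Slc16a10 and Atp2a2 ran from 4.33e-07 to 0.000143. Klf9, also on this list, was higher too and is given below with the corticosteroid genes.
Of 8 tested retinoid genes, 6 were higher and 2 were not called, with a median of 0.43. Dhrs3, a retinaldehyde reductase gene, had 18.1 ± 0.985 CPM in the labelled knockouts and 14.0 ± 0.714 CPM in the controls (adjusted p 0.00162). With the Y-linked covariate 2 of the 8 were higher, and without the 3 libraries near 0 of Y-linked genes or Xist 3 of 11 were higher and 1 lower. Dhrs3 was not called in either (0.0550 and 0.0640). The fibroblast markers, higher in the same libraries as given above, moved with this list, and their part in it was not tested.

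Of 12 tested genes of corticosteroid handling and response, 4 were higher and 3 lower, 7 in all where 44.4% of all genes were called. Tsc22d3 (GILZ), a classic glucocorticoid target, had 221.2 ± 13.4 CPM in the labelled knockouts and 142.9 ± 0.674 CPM in the controls, and Klf9 was 0.37 higher on the log2 scale. Errfi1 and Ddit4 were lower, by 0.63 and 0.65 (adjusted p of these 4 from 1.85e-07 to 0.00579). Of 11 liver X receptor targets, 4 were higher and 1 lower, which is near the share of all genes called. Pltp, which transfers phospholipids between lipoproteins, had 12.7 ± 1.06 CPM in the labelled knockouts and 2.10 ± 0.689 CPM in the controls, and Apoe 203.3 ± 2.04 CPM in the labelled knockouts and 115.2 ± 12.5 CPM in the controls (1.00e-07 and 2.86e-07). Abcg1 was 0.24 lower (0.0493), a call lost with raw library totals (0.0919), with DESeq2 (0.0616), in both settings for sex-linked genes (0.776 and 0.882), and without labelled knockout replicate 1 (0.215) or control replicate 1 (0.0597) or 3 (0.253). Of 14 tested immediate early genes besides the NR4A receptors, 5 were higher and 9 were not called. Cyr61 had 43.7 ± 4.26 CPM in the labelled knockouts and 22.8 ± 3.79 CPM in the controls, and Fos 7.47 ± 1.54 CPM in the labelled knockouts and 3.48 ± 0.866 CPM in the controls (9.95e-06 and 0.000398). Without labelled knockout replicate 3, 3 of 14 were higher and 2 lower, and without control replicate 1, 3 of 15 were higher and 2 lower. The lower genes were Jun and Atf3 in both, named after their values were seen. With the Y-linked covariate 3 of 14 were higher, and Fos was not called (0.0613).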

How the data were processed

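Per the labels' protocols, ribosome-depleted total RNA was made into stranded libraries, although an mRNA kit of the same maker is also named, and read as single-end reads. The submitters' processing notes name mm10, DESeq, Partek 6.6 and TopHat2 2.0. What each did, and if counting was stranded, is not given in the sources used here. The deposited table holds estimated counts per transcript, which need not be whole, and RPKM, scaled by the authors to transcript length and to reads that include introns and the space between genes. A deposited sheet gives counts of reads per library and the percent of reads by region.

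Estimated counts were summed per gene symbol and rounded. Unrounded, 94.5% of the gene sums lay within 0.01 of an integer. Symbols turned to dates by a spreadsheet, 58 in all, were restored from their transcript identifiers. A count of 0 allows up to 3 counts, or 0.0918 to 0.234 CPM per library; such floors cover counting error only. The test was edgeR 4.0.16 in R 4.3.3 (quasi-likelihood, TMM, filterByExpr at 10 counts and 15 in total), two-sided, adjusted by Benjamini-Hochberg over 14290 genes or 21591 transcripts and a threshold of 0.05. It was tested on simulated data. Common biological variation was 5.58%. The alternatives were DESeq2 1.42.0, voom in limma 3.58.1, 2 other scalings, 2 other filters, robust dispersion, a replicate block, sex-linked settings and leaving out each library. Rescaling the summed RPKM to TMM was chosen after seeing the data.

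The members and lists were chosen with earlier results of these data known. Values in every library are given for Esrra, Esrrb, Esrrg and members called with a log2 fold change of at least 0.5 in size and a mean of at least 1 RPKM in either group. Other genes with values by library were chosen after their values were seen, as were the transcript rows named outside the estrogen-related receptors. Promoter windows are those of RefSeq, GRCm38.p6, which 42 members matched; 56 of their 63 windows match the start of a row. Single values of some list genes are not reported here, and the list counts include them.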

Additional observations from a re-analysis of the deposited data

How the results depend on the processing

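All 6 genes called higher kept their call in all 16 alternatives, as did Thra, Ppara, Nr2f6, Esrra, Nr3c2 and Nr0b2 of the 13 called lower. Of the 13 lower genes, 6 kept their call with the Y-linked covariate, where Esr1 was gained so that 7 genes were lower, and 6 kept it without the 3 libraries near 0 of Y-linked genes or Xist, which leaves 1 control library, assumed to vary like the labelled knockouts; fewer samples entered that fit. Leaving out each library gave 6 to 7 higher and 10 to 13 lower genes. The replicate numbers do not pair the samples, since deviations of same-numbered samples correlated at -0.01, -0.02 and 0.10. With the replicate block, 6 genes were higher and 14 lower, Rara being the one gained (adjusted p 0.0203 by edgeR). The log2 ratio of the summed estrogen-related receptors was -0.13 on TMM-scaled levels. Those levels lack the 0.15 by which deposited RPKM stands higher in the labelled knockouts, for every gene alike. On the deposited scale the ratio was -0.0155 to 0.0480 when each library was left out. Reversals were seen only in genes that were not called, and their cause was not tested. With the Y-linked covariate the log2 fold change was 0.17 for Nr1d1, -0.0243 for Nr2c1, 0.11 for Ppard, 0.0248 for Rara and 0.48 for Vdr. Without the 3 libraries it was 0.14 for Nr1d1, -0.0122 for Nr2c1, 0.11 for Ppard and 0.39 for Vdr. With raw library totals it was 0.0200 for Nr2c2, 0.0157 for Nr5a2, 0.0351 for Ppard and 0.0303 for Vdr. Leaving out each library gave -0.0432 to 0.0543 for Nr2f2, -0.095 to 0.272 for Nr4a3, -0.0697 to 0.00892 for Nr5a2, -0.0902 to 0.0305 for Ppard, -0.489 to 0.293 for Rxrg and -0.171 to 0.0776 for Vdr. Low counts limit what can be shown for the 15 tested genes under 1 RPKM.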
